A study of Mus musculus with 6 samples.

Results

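The 46 genes described here encode the subunits, regulators and assembly chaperones of the mouse proteasome. They were chosen by name, as the rows whose symbol starts with Psma, Psmb, Psmc, Psmd, Psme, Psmf or Psmg followed by a number, out of 22558 gene names in each of 3 deposited tables. The rule leaves out the 2 immunoproteasome genes Psmb8 and Psmb9. The naming rule uses no measured value, and 45 of the 46 reached 1 FPKM (fragments scaled by library size and per kilobase of transcript) in at least 1 library of every table. Psmb11, the thymus-specific subunit, was the exception.

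TruSeq mRNA libraries were made from mouse pluripotent cells at passage 25, grown on feeder cells with LIF and moved to gelatin before lysis, so all 6 groups share that culture. Embryonic stem cells (ESC) of strain 129Sv carried either an H2A.X knockout made with Cre or the undeleted Flox/Flox allele. The other 4 libraries are of induced pluripotent stem cells (iPSC) with a 129Sv/C57 mix as background. Their parental cells were tail tip fibroblasts (TTF) or peritoneal fibroblasts (PF), and each origin gave 1 line labelled 4N+ and 1 labelled 4N-. The labels do not spell out 4N. General knowledge of the field reads it as success or failure in tetraploid complementation, in which a 4N+ line can build a whole embryo in a tetraploid host. Each group is 1 line and 1 library, so group and line cannot be told apart and replicates are lacking in each comparison. The labels give no genotype at H2A.X for the iPSC and no age or number of donor animals.

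The proteasome degrades proteins that carry ubiquitin chains. Its core particle is a barrel of outer alpha rings, which control entry, and inner beta rings, in which Psmb5, Psmb6 and Psmb7 cut the chain. A regulatory particle caps the barrel: its base holds the Psmc ATPases that unfold the substrate, and its lid removes ubiquitin through the protease Psmd14. Activators of the Psme group can replace that cap, Psmf1 can inhibit the core, and the Psmg proteins and Psmd5, Psmd9 and Psmd10 help the particles assemble. Pluripotent cells are known for high proteasome activity, to which the lid subunit Psmd11 has been linked in human cells.

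Effective depth, recovered from values worth a single fragment, was 39060000 fragments in the knockout ESC and 44390000 to 61180000 in the other libraries. For a transcript of 1000 bases, 1 FPKM was then worth 31.1 to 48.7 fragments. H2afx, the gene of H2A.X, had 6.18 FPKM in the knockout against 34.9 FPKM in Flox/Flox cells, the direction of the labels. The knockout library also stood apart in cell markers. All 10 pluripotency markers listed were lower in it, with a summed level of 852 FPKM against 1567 FPKM, although Nanog was all but level (log2 ratio -0.00098). Of 8 trophoblast markers, 6 were measured and 5 of those were higher, with sums of 891 and 37.6 FPKM, led by Krt18 (659 FPKM) and Krt8 (188 FPKM). Cdx2 and Elf5 stayed below 1 FPKM. The 5 macrophage markers summed to 57.8 and 12.3 FPKM, with Tyrobp listed at 0 in the knockout. The 9 fibroblast markers summed to 8.23 and 2.20 FPKM. Whether this other content shaped the proteasome values was not tested. In bulk RNA, fewer cells of a type and less RNA per cell cannot be told apart.

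Proteasome transcripts were abundant in all 6 libraries. The 46 genes made up 1.19% to 1.39% of the summed FPKM of a library, and their median lay above the level of 97.0% to 97.6% of all listed genes. The median of the 14 constitutive core subunits was 119 FPKM in knockout and 145 FPKM in Flox/Flox cells. In the PF lines it was 143 FPKM (4N-) and 172 FPKM (4N+), and in the TTF lines 176 FPKM (4N-) and 153 FPKM (4N+). The 17 base and lid subunits had medians of 72.1, 104, 84.6, 106, 119 and 108 FPKM in the same order, below the core median in every library. The order of the 46 levels was nearly the same from library to library, with Spearman coefficients of 0.952 to 0.996 over the 15 pairs of libraries. These coefficients describe genes that share 1 annotation and 1 processing. Scaling may differ from table to table, which limits any comparison of levels across them.

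**Figure D1:**
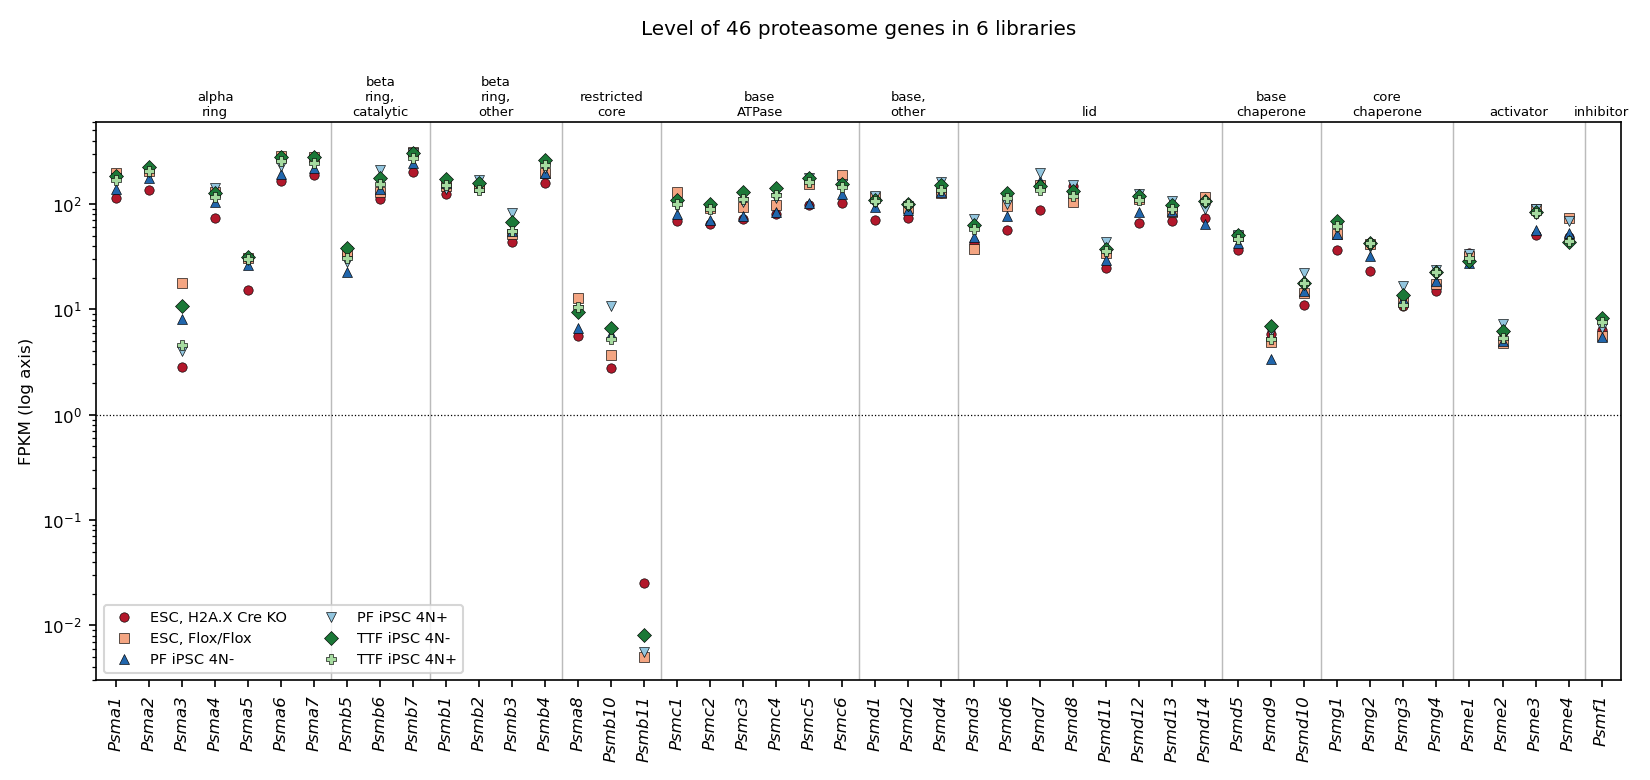
Level of each of the 46 proteasome genes (horizontal axis, grouped by role) in FPKM on a log axis, with 1 symbol for each of the 6 libraries; the dotted line marks 1 FPKM and values listed at 0 are not drawn. Psmb7 heads the order in every library at 202 to 312 FPKM, Psma3 lies far below the rest of its ring, and Psmb11 is the 1 gene under the dotted line.

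Within the alpha ring, 4 subunits stood above 100 FPKM in every library and 3 did not. Psma6 was measured at 164 (knockout) and 288 (Flox/Flox) FPKM in ESC, 194 (4N-) and 231 (4N+) FPKM in the PF lines, and 280.2 (4N-) and 254 (4N+) FPKM in the TTF lines. Psma7, the last alpha subunit, stood at 189 FPKM in the knockout and 277 FPKM in the Flox/Flox ESC, 222 FPKM in the 4N- and 254 FPKM in the 4N+ PF line, and 279 FPKM in the 4N- and 247 FPKM in the 4N+ TTF line. These were the highest of the ring, and in all 6 libraries they were among the 4 most abundant proteasome transcripts.

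Psma1 stood at 114 (knockout) and 198 (Flox/Flox) FPKM in ESC, 138 (4N-) and 175 (4N+) FPKM in the PF lines, and 186 (4N-) and 171 (4N+) FPKM in the TTF lines. Psma2 stood at 137 FPKM in the knockout and 205 FPKM in the Flox/Flox ESC, 176 FPKM in the 4N- and 203 FPKM in the 4N+ PF line, and 227 FPKM in the 4N- and 206 FPKM in the 4N+ TTF line, and Psma4 at 73.7 (knockout) and 129 (Flox/Flox) FPKM in ESC, 105 (4N-) and 140.4 (4N+) FPKM in the PF lines, and 127 (4N-) and 117 (4N+) FPKM in the TTF lines. For all 3 the knockout ESC held the lowest level of the 6 libraries. Psma5 was lower throughout, at 15.2 FPKM in the knockout and 30.5 FPKM in the Flox/Flox ESC, 26.4 FPKM in the 4N- and 29.6 FPKM in the 4N+ PF line, and 31.6 FPKM in the 4N- and 30.1 FPKM in the 4N+ TTF line.

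Psma3 was the exception of the ring. Its level was 2.86 (knockout) and 17.8 (Flox/Flox) FPKM in ESC, 8.06 (4N-) and 3.98 (4N+) FPKM in the PF lines, and 10.7 (4N-) and 4.62 (4N+) FPKM in the TTF lines. That is 2.42%, 12.2%, 5.63%, 2.31%, 6.10% and 3.02% of the core median in the same order, although each alpha ring is built from the 7 subunits in equal number. Relative to the core median, Psma3 varied most of all measured members, with an SD of 0.94 on the log2 scale over the 6 libraries, and Psmd13 varied least at 0.05. Psma3 (chromosome 12, 72075609 to 72095910 on mm9) shares much of its sequence with other loci. Of its 50-base coding words, 85.6% also occur in Gm13835, a listed gene of the annotation. Reads that fit both places may be split or dropped by the authors' counting, so the Psma3 level is uncertain.

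The same search found a near-identical copy, sharing at least 50% of the 50-base coding words, for 5 other members. These were Psma5 (54.5%, Gm12989), Psmb3 (50.5%, AC114990.1), Psmb5 (56.1%, Gm3375), Psme2 (69.5%, Psme2b) and Psmg3 (52.7%, Gm26938). Psma5, Psmb3 and Psmb5 were also the lowest constitutive core subunits after Psma3 in every library. Whether lost reads set these levels was not tested.

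Among the catalytic beta subunits, Psmb7, the trypsin-like one, was the most abundant proteasome transcript everywhere. It stood at 202 FPKM in the knockout and 312 FPKM in the Flox/Flox ESC, 247 FPKM in the 4N- and 305 FPKM in the 4N+ PF line, and 303 FPKM in the 4N- and 273 FPKM in the 4N+ TTF line. Psmb6, the caspase-like subunit, stood at 110.4 (knockout) and 129 (Flox/Flox) FPKM in ESC, 140.2 (4N-) and 212 (4N+) FPKM in the PF lines, and 178 (4N-) and 153 (4N+) FPKM in the TTF lines. Psmb5, the chymotrypsin-like subunit and the target of proteasome inhibitor drugs, was measured at 33.2 FPKM in the knockout and 35.5 FPKM in the Flox/Flox ESC, 22.5 FPKM in the 4N- and 28.3 FPKM in the 4N+ PF line, and 37.8 FPKM in the 4N- and 30.7 FPKM in the 4N+ TTF line. Of the 3, Psmb6 alone was highest in the 4N+ PF line.

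The other beta subunits close the inner rings without cutting. Psmb4 stood at 157 (knockout) and 196 (Flox/Flox) FPKM in ESC, 195 (4N-) and 222 (4N+) FPKM in the PF lines, and 261 (4N-) and 233 (4N+) FPKM in the TTF lines, and was among the 6 most abundant members in each library. Psmb3 was the lowest of the 4, at 43.4 FPKM in the knockout and 51.9 FPKM in the Flox/Flox ESC, 55.4 FPKM in the 4N- and 81.9 FPKM in the 4N+ PF line, and 67.9 FPKM in the 4N- and 55.5 FPKM in the 4N+ TTF line. Psmb1 stood at 123 (knockout) and 147 (Flox/Flox) FPKM in ESC, 157 (4N-) and 138 (4N+) FPKM in the PF lines, and 174 (4N-) and 152 (4N+) FPKM in the TTF lines. Psmb2 stood at 147 FPKM in the knockout and 144 FPKM in the Flox/Flox ESC, 146 FPKM in the 4N- and 169.9 FPKM in the 4N+ PF line, and 157 FPKM in the 4N- and 136 FPKM in the 4N+ TTF line, with the knockout ESC slightly above the Flox/Flox ESC.

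The tissue-restricted core genes were low. Psma8, the testis form of the Psma7 position, stood at 5.59 (knockout) and 12.8 (Flox/Flox) FPKM in ESC, 6.70 (4N-) and 9.83 (4N+) FPKM in the PF lines, and 9.43 (4N-) and 10.6 (4N+) FPKM in the TTF lines. Psmb10, the immunoproteasome form of Psmb7, stood at 2.79 FPKM in the knockout and 3.67 FPKM in the Flox/Flox ESC, 5.85 FPKM in the 4N- and 10.7 FPKM in the 4N+ PF line, and 6.61 FPKM in the 4N- and 5.22 FPKM in the 4N+ TTF line, so every library held far more Psmb7 than Psmb10 transcript. Psmb11 ranged from a listed 0 in 2 libraries (4N- PF and 4N+ TTF) to 0.0253 FPKM in the knockout ESC. The 2 other immunoproteasome genes, left out by the naming rule, were at a like low level: Psmb8 ranged from 0.531 to 1.88 FPKM and Psmb9 from 2.30 to 7.27 FPKM, both highest in the knockout ESC.

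The 6 base ATPases had closer levels than the core subunits. Psmc6 stood at 103 (knockout) and 189.9 (Flox/Flox) FPKM in ESC, 123 (4N-) and 156 (4N+) FPKM in the PF lines, and 155 (4N-) and 146 (4N+) FPKM in the TTF lines. Psmc2, the lowest in every library, stood at 64.2 FPKM in the knockout and 92 FPKM in the Flox/Flox ESC, 70.4 FPKM in the 4N- and 90.7 FPKM in the 4N+ PF line, and 101 FPKM in the 4N- and 89.9 FPKM in the 4N+ TTF line. Psmc5 stood at 98.1 (knockout) and 155 (Flox/Flox) FPKM in ESC, 103 (4N-) and 178 (4N+) FPKM in the PF lines, and 177 (4N-) and 162 (4N+) FPKM in the TTF lines. The lowest ATPase level in each library was between 64.2 and 100.5 FPKM and the highest between 103 and 189.9 FPKM.

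Psmc1 stood at 68.2 FPKM in the knockout and 131 FPKM in the Flox/Flox ESC, 81.1 FPKM in the 4N- and 96.1 FPKM in the 4N+ PF line, and 109 FPKM in the 4N- and 100 FPKM in the 4N+ TTF line, and in the Flox/Flox ESC it ranked 12 of the 46 against ranks of 20 to 22 in the other libraries. Psmc3 and Psmc4 followed each other: Psmc3 stood at 72.1 (knockout) and 93.2 (Flox/Flox) FPKM in ESC, 76.2 (4N-) and 105 (4N+) FPKM in the PF lines, and 129.6 (4N-) and 113 (4N+) FPKM in the TTF lines. Psmc4 stood at 80.3 FPKM in the knockout and 98.8 FPKM in the Flox/Flox ESC, 84 FPKM in the 4N- and 115 FPKM in the 4N+ PF line, and 142 FPKM in the 4N- and 121 FPKM in the 4N+ TTF line. Over the 6 libraries their log2 levels had a Pearson coefficient of 0.997, the highest of any pair of members.

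Of the base subunits without ATPase activity, the ubiquitin receptor Psmd4 was the highest, at 128 (knockout) and 126 (Flox/Flox) FPKM in ESC, 131 (4N-) and 160.4 (4N+) FPKM in the PF lines, and 152 (4N-) and 135 (4N+) FPKM in the TTF lines. The scaffold subunit Psmd1 stood at 70.1 FPKM in the knockout and 117 FPKM in the Flox/Flox ESC, 92.7 FPKM in the 4N- and 118 FPKM in the 4N+ PF line, and 109 FPKM in the 4N- and 108 FPKM in the 4N+ TTF line. Psmd2, the other scaffold, stood at 74.4 (knockout) and 90.7 (Flox/Flox) FPKM in ESC, 87.7 (4N-) and 94.6 (4N+) FPKM in the PF lines, and 99.5 (4N-) and 99.9 (4N+) FPKM in the TTF lines. Relative to the core median Psmd2 hardly varied: its highest share was 1.19 times its lowest.

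The lid held both abundant and scarce subunits. Psmd7, the inactive partner of the ubiquitin-removing protease, stood at 87.1 FPKM in the knockout and 153 FPKM in the Flox/Flox ESC, 163 FPKM in the 4N- and 196 FPKM in the 4N+ PF line, and 149 FPKM in the 4N- and 136 FPKM in the 4N+ TTF line. Psmd8 stood at 147 (knockout) and 104 (Flox/Flox) FPKM in ESC, 140.1 (4N-) and 149.8 (4N+) FPKM in the PF lines, and 132 (4N-) and 120.2 (4N+) FPKM in the TTF lines, with no library above the knockout ESC except the 4N+ PF line. Psmd11 was the lowest lid subunit in every library, at 24.9 FPKM in the knockout and 34.5 FPKM in the Flox/Flox ESC, 29.6 FPKM in the 4N- and 43.5 FPKM in the 4N+ PF line, and 37.3 FPKM in the 4N- and 35.4 FPKM in the 4N+ TTF line.

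Psmd14, the protease of the lid, stood at 74 (knockout) and 116 (Flox/Flox) FPKM in ESC, 64.6 (4N-) and 88.7 (4N+) FPKM in the PF lines, and 107 (4N-) and 108 (4N+) FPKM in the TTF lines. Psmd12 stood at 66.7 FPKM in the knockout and 112 FPKM in the Flox/Flox ESC, 84.6 FPKM in the 4N- and 124 FPKM in the 4N+ PF line, and 119 FPKM in the 4N- and 108 FPKM in the 4N+ TTF line, and Psmd6 at 57.1 (knockout) and 95.2 (Flox/Flox) FPKM in ESC, 76.2 (4N-) and 99.5 (4N+) FPKM in the PF lines, and 127 (4N-) and 114 (4N+) FPKM in the TTF lines. Psmd3 stood at 42.9 FPKM in the knockout and 37.5 FPKM in the Flox/Flox ESC, 48.9 FPKM in the 4N- and 71.5 FPKM in the 4N+ PF line, and 62.8 FPKM in the 4N- and 58.4 FPKM in the 4N+ TTF line, with the Flox/Flox ESC lowest. Psmd13 ran from 69.0 to 106 FPKM and kept to 55.6% to 61.4% of the core median.

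Assembly chaperones had lower levels than most subunits, although Psmg1 exceeded the core subunit Psma3 in each library. For the base, Psmd5 stood at 36.3 (knockout) and 49.7 (Flox/Flox) FPKM in ESC, 42.8 (4N-) and 50.2 (4N+) FPKM in the PF lines, and 50.9 (4N-) and 47 (4N+) FPKM in the TTF lines. Psmd10, also known as gankyrin, stood at 10.9 FPKM in the knockout and 14.1 FPKM in the Flox/Flox ESC, 14.9 FPKM in the 4N- and 21.9 FPKM in the 4N+ PF line, and 17.9 FPKM in the 4N- and 17.7 FPKM in the 4N+ TTF line. Psmd9 was the lowest, at 5.81 (knockout) and 4.85 (Flox/Flox) FPKM in ESC, 3.35 (4N-) and 6.14 (4N+) FPKM in the PF lines, and 6.92 (4N-) and 5.24 (4N+) FPKM in the TTF lines.

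For the core, Psmg1 stood at 36.7 FPKM in the knockout and 51.6 FPKM in the Flox/Flox ESC, 51.9 FPKM in the 4N- and 60.6 FPKM in the 4N+ PF line, and 68.8 FPKM in the 4N- and 61.8 FPKM in the 4N+ TTF line, and its partner Psmg2 at 23.1 (knockout) and 41.9 (Flox/Flox) FPKM in ESC, 31.9 (4N-) and 39.3 (4N+) FPKM in the PF lines, and 42.6 (4N-) and 42.7 (4N+) FPKM in the TTF lines. Psmg3 stood at 10.7 FPKM in the knockout and 12 FPKM in the Flox/Flox ESC, 12.6 FPKM in the 4N- and 16.5 FPKM in the 4N+ PF line, and 13.5 FPKM in the 4N- and 11.1 FPKM in the 4N+ TTF line, and its partner Psmg4 at 15 (knockout) and 17.5 (Flox/Flox) FPKM in ESC, 18.7 (4N-) and 23.8 (4N+) FPKM in the PF lines, and 22.6 (4N-) and 22.6 (4N+) FPKM in the TTF lines. Psmg1 was above Psmg2, and Psmg4 above Psmg3, in every library. Psmg1 followed the core median closely over the 6 libraries, with a Pearson coefficient of 0.95.

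The activators spanned a wide range. Psme3, the nuclear activator subunit, stood at 51.2 FPKM in the knockout and 88.9 FPKM in the Flox/Flox ESC, 56.8 FPKM in the 4N- and 90.2 FPKM in the 4N+ PF line, and 83.4 FPKM in the 4N- and 82.4 FPKM in the 4N+ TTF line. Psme4, a large single-chain activator, stood at 48.9 (knockout) and 73.2 (Flox/Flox) FPKM in ESC, 52.9 (4N-) and 69.1 (4N+) FPKM in the PF lines, and 43.7 (4N-) and 44.7 (4N+) FPKM in the TTF lines. It was higher in both ESC libraries than in either TTF library.

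Psme1 and Psme2 form 1 mixed ring, yet differed in level. Psme1 stood at 34.5 FPKM in the knockout and 32 FPKM in the Flox/Flox ESC, 27.3 FPKM in the 4N- and 33.7 FPKM in the 4N+ PF line, and 28.8 FPKM in the 4N- and 30.9 FPKM in the 4N+ TTF line. Psme2 stood at 6.15 (knockout) and 4.81 (Flox/Flox) FPKM in ESC, 4.97 (4N-) and 7.29 (4N+) FPKM in the PF lines, and 6.21 (4N-) and 5.36 (4N+) FPKM in the TTF lines, and its near-identical copy makes that level uncertain. The inhibitor Psmf1 stood at 6.37 FPKM in the knockout and 5.59 FPKM in the Flox/Flox ESC, 5.45 FPKM in the 4N- and 6.62 FPKM in the 4N+ PF line, and 8.28 FPKM in the 4N- and 7.65 FPKM in the 4N+ TTF line.

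Over the 6 libraries the log2 level of a measured member had a median Pearson coefficient of 0.83 with the log2 core median. The coefficient was at least 0.9 for 11 members and below 0.5 for 8, among them Psma3 (0.30), Psmb5 (0.10), Psmd8 (-0.04) and Psme1 (-0.31). The core median contains the core subunits themselves, and the 6 libraries share their scaling in pairs, so these values describe the pattern only. The pairs with the most alike pattern after Psmc3 and Psmc4 were Psmb7 with Psmd5 (0.99), Psmb3 with Psmb6 (0.99) and Psma4 with Psmd1 (0.99).

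Promoter sequence was searched for motifs that proteasome promoters are known for. RefSeq promoters of build GRCm38.p6, from 250 bases before to 50 bases after a start site, matched 38 of the 46 genes by symbol. The letters CCGGAAG, a motif of ETS factors, occurred on either strand in 14 of the 38 (36.8%). Among 27025 genes with a RefSeq promoter it was in 9.93%, and among 970 other genes that reached 30 FPKM in all 6 libraries it was in 26.6%. The letters TGACNNNGC, the antioxidant response element to which Nfe2l1 and Nfe2l2 bind, occurred in 6 of the 38 (15.8%), against 13.99% of all genes and 17.4% of those at 30 FPKM or more. CCAAT occurred in 13 (34.2%), against 41.1% and 45.8%. TGACGTCA, the cyclic AMP response element, occurred in 0, against 2.03% and 4.02%. These letters are a description of the windows and not of binding.

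The 120 bases before the start site are shown for 7 genes, with each ETS or antioxidant response match in capitals, on the strand of the gene. Psmc1, Psmc6, Psmd6 and Psmd12 are shown as ETS examples, chosen after their values were seen. The 14 genes with an ETS match had ESC ratios, given further on, from -0.93 (Psmc1) to 0.02 (Psmd4), and Psma3, with the largest ratio, has none. Psmb5, Psmb6 and Psmd9 hold an antioxidant response match at -47 to -39, -9 to -1 and -31 to -23 from the start.
Psmc1 (chr12:100110082-100110201, plus strand): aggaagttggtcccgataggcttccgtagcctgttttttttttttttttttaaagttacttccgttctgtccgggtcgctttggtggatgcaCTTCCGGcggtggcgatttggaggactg
Psmc6 (chr14:45329704-45329823, plus strand): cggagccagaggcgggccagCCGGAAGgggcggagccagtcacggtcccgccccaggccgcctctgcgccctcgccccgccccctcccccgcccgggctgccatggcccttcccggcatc
Psmd6 (chr14:14120946-14121065, minus strand): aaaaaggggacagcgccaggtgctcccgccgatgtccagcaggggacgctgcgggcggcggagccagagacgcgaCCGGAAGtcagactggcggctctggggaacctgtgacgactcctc
Psmd12 (chr11:107479408-107479527, plus strand): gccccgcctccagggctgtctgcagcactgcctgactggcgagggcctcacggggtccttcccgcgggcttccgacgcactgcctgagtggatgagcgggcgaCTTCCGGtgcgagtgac
Psmb5 (chr14:54617996-54618115, minus strand): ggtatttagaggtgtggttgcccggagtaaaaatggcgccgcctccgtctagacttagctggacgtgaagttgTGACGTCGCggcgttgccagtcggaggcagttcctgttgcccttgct
Psmb6 (chr11:70525237-70525356, plus strand): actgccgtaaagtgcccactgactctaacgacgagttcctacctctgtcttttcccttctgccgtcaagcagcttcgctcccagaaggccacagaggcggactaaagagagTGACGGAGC
Psmd9 (chr5:123228070-123228189, plus strand): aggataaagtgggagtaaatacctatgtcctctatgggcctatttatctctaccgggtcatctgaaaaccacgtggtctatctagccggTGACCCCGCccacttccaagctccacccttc
The ETS matches begin at -28 (Psmc1), -100 (Psmc6), -45 (Psmd6) and -17 (Psmd12). Windows further upstream hold a second kind of match in Psmc6 and Psmd12, an antioxidant response motif at -227 and -247.

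In the H2A.X knockout ESC most proteasome genes were lower than in the Flox/Flox ESC. Of 45 measured genes 37 were lower, or 82.2%, against 51.7% of all 12086 measured genes. The log2 ratio of FPKM + 1, which damps low values and is the scale of all log2 ratios and of all counts at 1.5-fold or 2-fold here, had a median of -0.45 over the 45 genes and -0.03 over all genes. The other 8 were higher (17.8%, background 48.3%). At least 1.5-fold lower were 17 genes (37.8%, background 15.9%), and 0 were at least 1.5-fold higher (background 17.8%). At least 2-fold lower were 2 genes, Psma3 and Psma8 (4.44%, background 3.72%), and 0 were at least 2-fold higher (background 7.49%). On FPKM with nothing added 18 genes were at least 1.5-fold lower and 3 at least 2-fold lower, with Psma2 and Psma5 added. Folds printed beside a gene's levels are of FPKM with nothing added.

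Genes of high level were lower as a class in that library. Over the 1521 genes that reached 30 FPKM in each ESC library the median was -0.39, and 77.1% of them were lower. Of the 45 measured members, 33 reached that level. Centred on that median, the proteasome median was -0.06, with 24 genes lower and 21 higher, so the split of the 45 genes moved from 37 and 8 to nearly even. On that scale 2 genes were at least 1.5-fold lower, Psma3 and Psma8, and 3 at least 1.5-fold higher, Psmd8, Psme2 and Psmd9. Of these genes only Psmd8 reached 30 FPKM in each ESC library. Psme2 and Psmd9 lay at 4.81 to 6.15 FPKM, and all genes with a mean of 3 to 10 FPKM had a median log2 ratio of 0.06. Shares over all genes were not counted on this scale.

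The subunit classes differed within that shift. All 7 alpha subunits were lower, with a median of -0.80 and a range of -2.28 to -0.54, and all 7 also lay under the median of genes of high level. Psma3 had the largest ratio, 17.8 to 2.86 FPKM or 6.21-fold lower in the knockout. If its transcript is taken as 1000 bases, these levels rest on 706 and 89 fragments, and the exact Poisson 95% intervals are 16.5 to 19.2 and 2.30 to 3.52 FPKM, for counting error only. Psma5 was next of the ring at -0.96, then Psma6 at -0.81, Psma4 at -0.80 and Psma1 at -0.79. The other 2, Psma2 and Psma7, stood at -0.58 and -0.54, just short of a 1.5-fold difference on the FPKM + 1 scale, and Psma2 was at least 1.5-fold lower in FPKM itself.

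Of the beta ring, Psmb7 had a ratio like those of the alpha ring and the others lay nearer to 0. The 3 catalytic subunits had log2 ratios of -0.09 (Psmb5), -0.22 (Psmb6) and -0.62 (Psmb7). The other 4 lay between -0.32 (Psmb4) and 0.03 (Psmb2), so 6 of the 7 constitutive beta subunits were above the median of genes of high level. Against genes of like transcript GC content, described further on, the count was the opposite: 6 of the 7 were lower, all but Psmb2, and so were all 7 alpha subunits. Of the restricted genes, Psma8 was 2.29-fold lower in the knockout (-1.07) and Psmb10 1.32-fold lower (-0.30). Psmb8 and Psmb9 went the other way, at 0.72 and 0.71.

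All 6 ATPases were lower, with a median of -0.58, and 4 of them were lower than the median of genes of high level. Psmc1 stood at -0.93, Psmc6 at -0.88 and Psmc5 at -0.65, while Psmc2, Psmc3 and Psmc4 were within 1.5-fold. In the rest of the base, Psmd1 stood at -0.74, Psmd2 at -0.28 and Psmd4 at 0.02. The lid was split: Psmd7 (-0.80), Psmd12 (-0.73), Psmd6 (-0.73) and Psmd14 (-0.64) were at least 1.5-fold lower, whereas Psmd8 (0.49) and Psmd3 (0.19) were higher in the knockout. The Psmd8 ratio, 1.41-fold, was the highest of the 45 genes.

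The remaining genes had mixed ratios. The 4 core chaperones were all lower, from -0.83 (Psmg2) to -0.15 (Psmg3), or 2 of 4 relative to genes of high level. Psmd5 and Psmd10 were lower (-0.44 and -0.35) and Psmd9 higher (0.22). Psme3 and Psme4 were lower (-0.79 and -0.57), while Psme1, Psme2 and the inhibitor Psmf1 were higher by 0.10, 0.30 and 0.16.

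**Figure D2:**
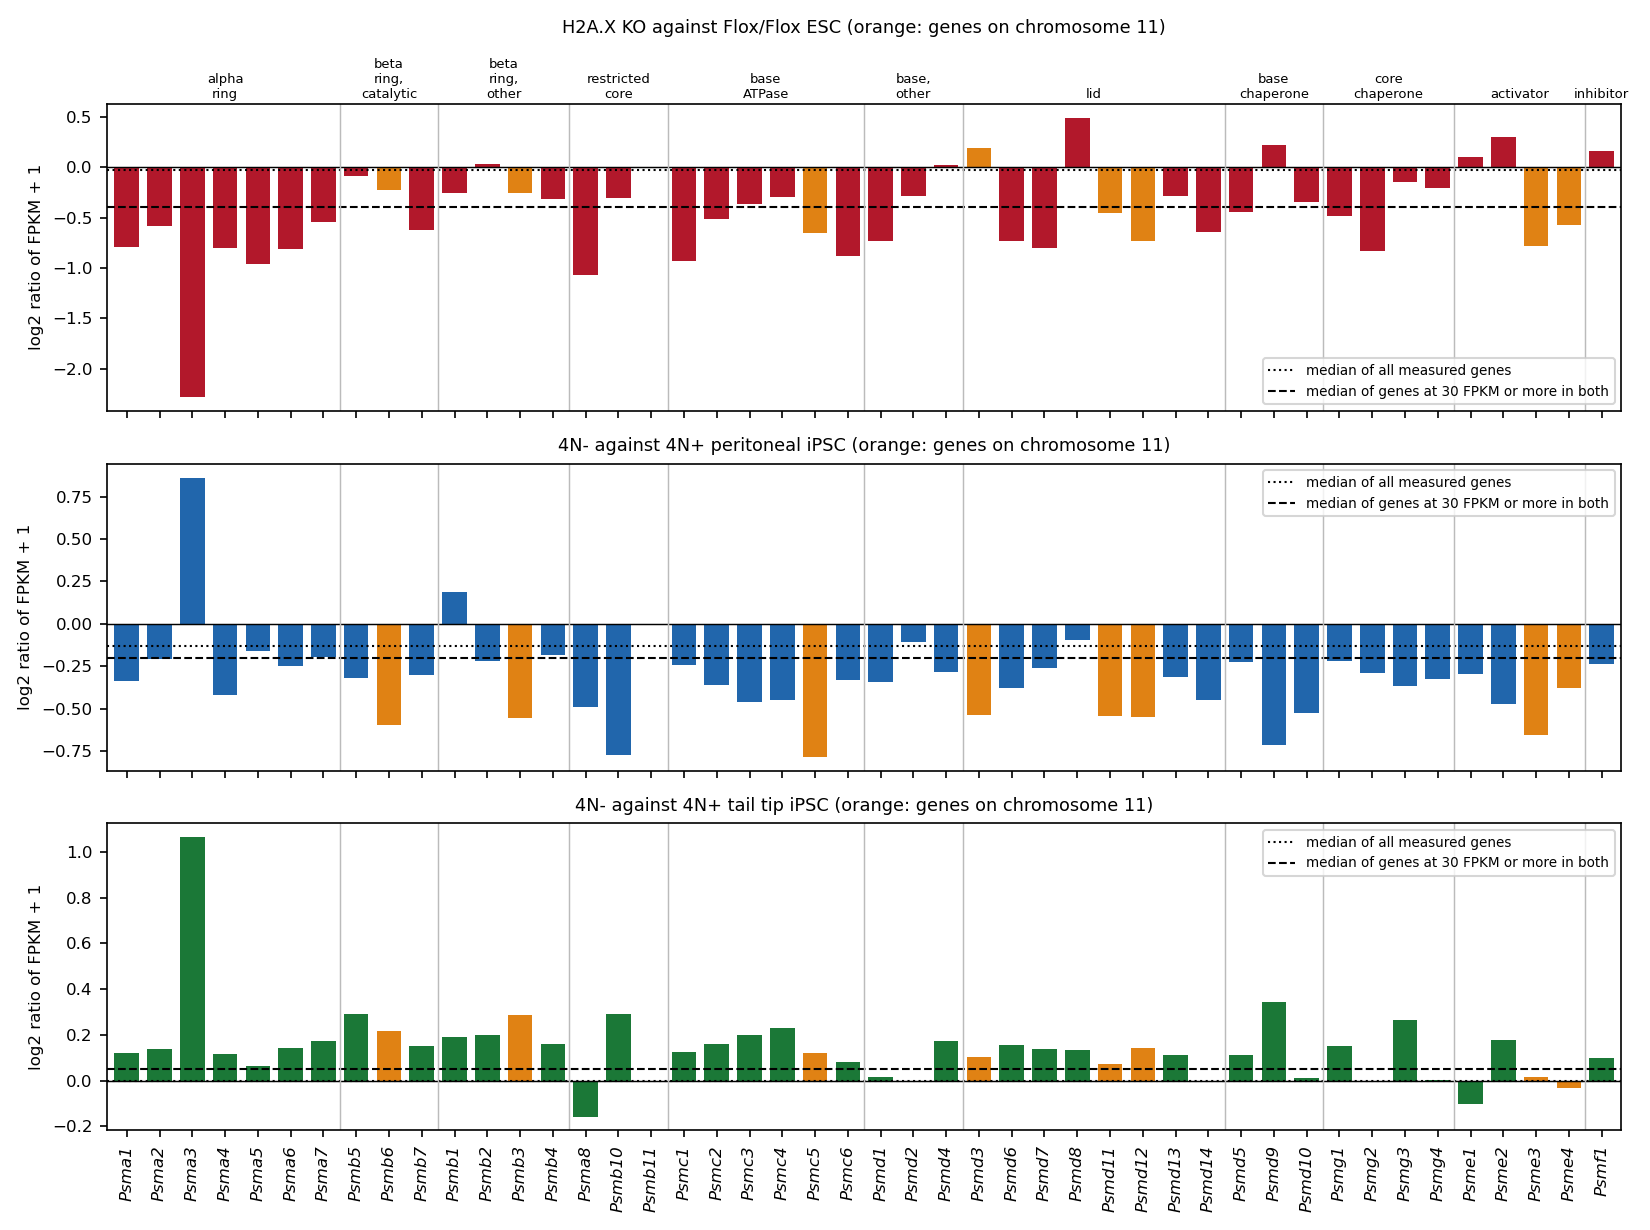
Log2 ratio of FPKM + 1 (vertical axis) of each proteasome gene (bars, grouped by role) in the 3 tables, with the median of all measured genes (dotted line) and of those reaching 30 FPKM in each library (dashed line); Psmb11 was not measured and has no bar, and orange bars are genes on chromosome 11. In the ESC panel 37 of 45 bars point down around a dashed line at -0.39, in the PF panel 43 point down, and in the TTF panel 39 point up (24 below, 38 below and 35 above the dashed line, respectively), with Psma3 the longest bar in each.

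The size of the ESC ratio followed the base composition of the transcript. Over 45 members the Spearman coefficient between ratio and transcript GC content was 0.70, and over 6238 genes that reached 5 FPKM in each ESC library it was 0.47. When those genes were put into 5 classes of equal size by GC, their median ratio went from -0.49 in the class with the lowest GC to 0.15 in that with the highest. The members went along: the 7 in the lowest class had a median of -0.64 and the 8 in the highest -0.18. Relative to its own GC class, the proteasome median was -0.30, and the same number, 37 of 45, were lower. The number at least 1.5-fold lower was then 4. The part of GC content in the ratios was not tested beyond these values, and genes share length, level and annotation besides GC.

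**Figure D3:**
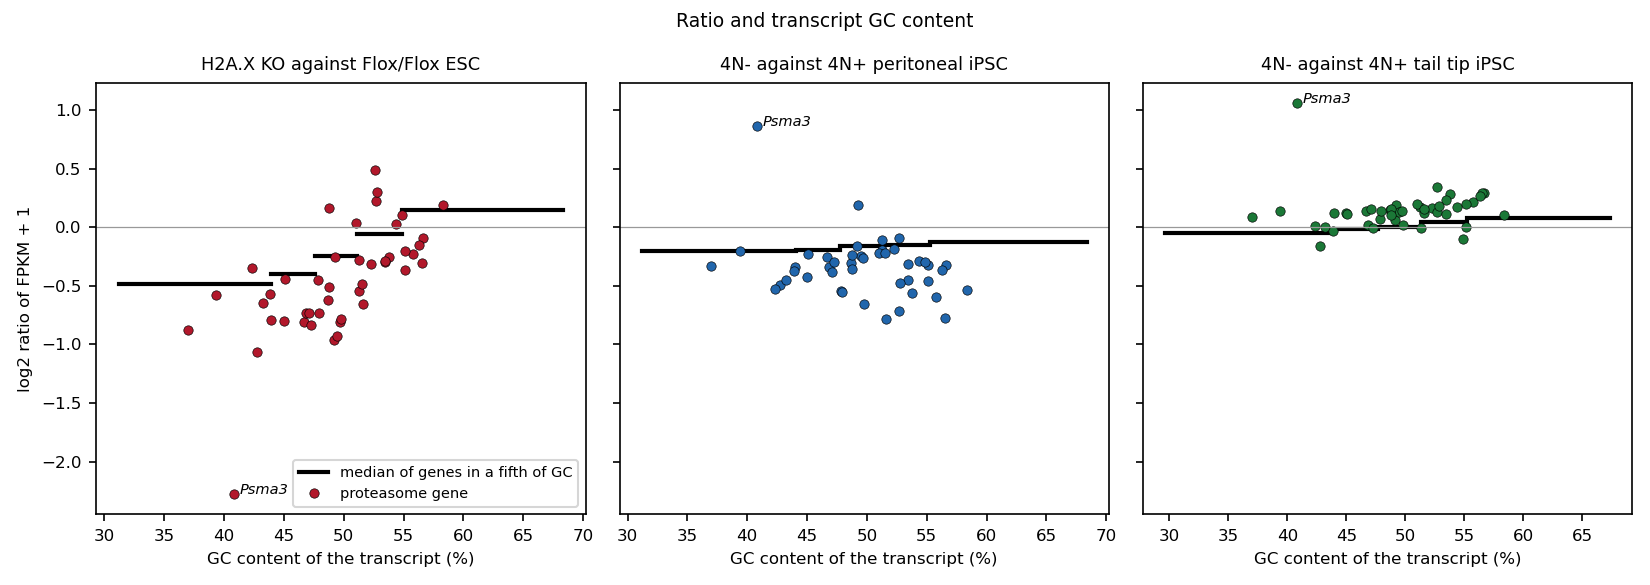
Log2 ratio of FPKM + 1 (vertical axis) against GC content of the longest coding transcript in percent (horizontal axis) for the 45 measured proteasome genes (points) in the 3 tables; black bars are the medians of all genes that reached 5 FPKM in each library, in 5 classes of GC content. In the ESC panel points and bars climb together from left to right, with Spearman coefficients of 0.70 (members) and 0.47 (all genes). The coefficients are -0.19 and 0.10 in the PF panel and 0.42 and 0.30 in the TTF panel.

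Genes that work with the proteasome were mixed as well. Of 10 measured proteasome partners, 9 were lower in the knockout, with a median of -0.48, or 6 relative to genes of high level. The deubiquitinases Uchl5 (-0.82) and Usp14 (-0.74) and the core assembly factor Pomp (-0.74) were at least 1.5-fold lower. The ubiquitin receptor Adrm1 was 1.98-fold higher, at 2.65 against 1.34 FPKM. Of 11 measured and reported ubiquitin and shuttle genes 9 were lower (4 relative to genes of high level). Rad23b stood at 63.8 against 98.7 FPKM (-0.62). Rps27a stood at -0.88 but at a low level, 1.62 against 3.82 FPKM, and copies were searched for members only.

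Genes known to act in proteasome gene transcription did not share a direction either. Of 9 measured genes 7 were lower in the knockout, but 1 relative to genes of high level. Nfyb, a subunit of the CCAAT-binding factor, stood at 27.8 against 56.0 FPKM (-0.99). Mafk, a small partner of NFE2-type factors, stood at 6.83 against 2.57 FPKM (1.13). Nfe2l1, which raises proteasome genes when the proteasome is inhibited, stood at 38.5 and 34.1 FPKM, a log2 ratio of 0.17. Its relative Nfe2l2 stood at 38.3 and 50.1 FPKM (-0.38).

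In the authors' deposited table for the ESC, 210 of 14589 tested genes (1.44%) were called and 0 of the 45 proteasome genes. Among members, Psma3 had the lowest q in the authors' deposited table, with p = 0.000814 and q = 0.0545. With 1 library per condition, these values do not measure the spread between lines of a condition.

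Between the iPSC lines from peritoneal fibroblasts, nearly all proteasome transcripts were less abundant in the 4N- than in the 4N+ line. Of 45 measured genes 43 were lower, or 95.6%, against 68.1% of all 11606 measured genes. The median log2 ratio was -0.33 against -0.13 over all genes and -0.20 over the 1785 genes that reached 30 FPKM in each line. Centred on the latter value, 38 genes were lower and 7 higher, with a median of -0.13, and 0 were at least 1.5-fold lower. At least 1.5-fold lower were 5 genes (11.1%, background 4.85%), and 1 was at least 1.5-fold higher (2.22%, background 1.98%). The 2 higher genes in all were 4.44% against 31.5% of all genes. On the FPKM + 1 scale no member was 2-fold lower (0, background 0.974%) or 2-fold higher (0, background 0.577%), and in FPKM itself Psma3 was 2.02-fold higher.

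The 5 genes belong to different parts of the machine. The ATPase Psmc5 (chromosome 11, 106117498 to 106124426 on mm9) stood at 103 FPKM in the 4N- and 178 FPKM in the 4N+ line, a log2 ratio of -0.78. Psmb10 (chromosome 8, 108459627 to 108462292) stood at 5.85 and 10.7 FPKM (-0.78). The base chaperone Psmd9 (chromosome 5, 123678198 to 123700134) stood at 3.35 and 6.14 FPKM (-0.72). The activator Psme3 and the catalytic subunit Psmb6 followed at -0.66 and -0.59, both on chromosome 11. The gene that was higher by that fold was Psma3, at 8.06 against 3.98 FPKM (0.86), and the other higher gene was Psmb1 (0.19).

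By class, all 17 base and lid subunits were lower, with a median of -0.36 and a range of -0.78 to -0.10, and 15 of them were lower relative to genes of high level. Of the 14 constitutive core subunits 12 were lower, with a median of -0.23, or 9 relative to genes of high level. The 4 core chaperones (median -0.31), the 3 base chaperones (median -0.53) and the 4 activators (median -0.43) were lower without exception on both scales, and Psmf1 stood at -0.24. Psmb5 and Psmb7 stood at -0.32 and -0.30. The lid subunit Psmd11 stood at 29.6 and 43.5 FPKM (-0.54).

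In this pair the members on chromosome 11 had a lower median ratio than those elsewhere. The 8 proteasome genes on chromosome 11 are Psmb3, Psmb6, Psmc5, Psmd3, Psmd11, Psmd12, Psme3 and Psme4. All 8 were lower in the 4N- line, from -0.78 to -0.38, with a median of -0.55. The 37 measured members on other chromosomes had a median of -0.30, and 35 of them were lower. The 636 chromosome 11 genes that reached 5 FPKM in each line had a median of -0.44, against -0.17 for all 7184 such genes, so the chromosome as a whole was lower in the 4N- line. Chromosome 6, which holds no member, was as low, at -0.43 over 326 genes. Chromosome 17 lay on the other side at 0.21 over 335 genes, and Psmb1, the 1 member on it, was one of the 2 that were higher.

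Measured against the median of its own chromosome, a proteasome gene had a median ratio of -0.13, with 39 of 45 lower, and 1 gene at least 1.5-fold lower. Without the 8 chromosome 11 genes, 2 genes remained at least 1.5-fold lower, Psmb10 and Psmd9. The cause of the chromosome difference was not tested. Of the non-members, Nfe2l1 (-0.43), Mafg (-0.31), Ubb (-0.32), Rps27a (-0.45) and Nploc4 (-0.61) are on chromosome 11 too.

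**Figure D4:**
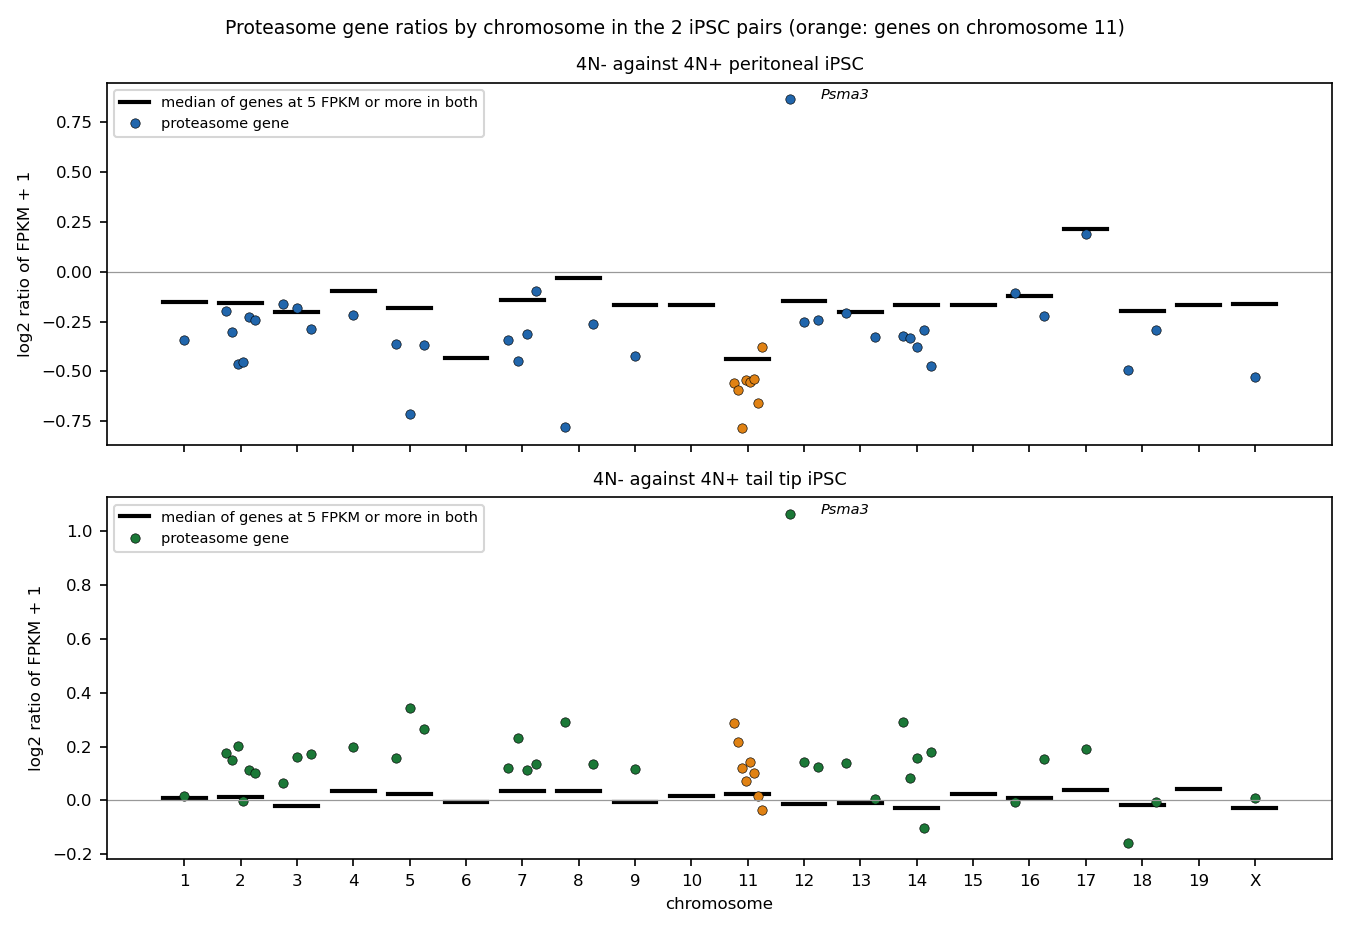
Log2 ratio of FPKM + 1, 4N- against 4N+ (vertical axis), of the 45 measured proteasome genes (points) by chromosome (horizontal axis) in the PF pair (upper panel) and the TTF pair (lower panel); black bars are the medians of all genes that reached 5 FPKM in each line, and orange points are genes on chromosome 11. In the upper panel the 8 orange points lie at -0.78 to -0.38 around a chromosome median of -0.44, and in the lower panel at -0.03 to 0.29 around 0.02.

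Proteasome partners went along in the PF pair. All 10 measured partners were lower in the 4N- line, with a median of -0.31, and 8 of them were lower relative to genes of high level. The 12 ubiquitin and shuttle genes that are reported were lower (median -0.19), or 6 relative to genes of high level. Of 9 genes of proteasome transcription 6 were lower (median -0.16), or 3 relative to genes of high level. Nploc4, a cofactor of the unfoldase Vcp, was the 1 gene of these lists at least 1.5-fold lower, and none was at least 1.5-fold higher. The fibroblast markers summed to 6.21 FPKM in the 4N- and 58.9 FPKM in the 4N+ line. S100a4 alone made 40.1 FPKM of the latter, Col1a2 5.41 FPKM, and Lum was listed at 0 in both lines. The pluripotency markers summed to 1516 and 1693 FPKM. The part of such content in the proteasome ratios was not tested.

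In the authors' deposited table for the PF pair, 75 of 13956 tested genes (0.537%) were called and 0 of the 45 proteasome genes. Among members, 6 had an unadjusted p below 0.05 in the authors' deposited table. The share of all tested genes below that p was not counted, so the 6 cannot be read as an excess. The lowest q among members was that of Psmc5, 0.382. These values rest on 1 library per condition and do not measure the spread between lines.

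Between the tail tip lines the direction was the opposite and the size small. Of 45 measured genes 39 were higher in the 4N- line, or 86.7%, against 50.1% of all 11354 measured genes. The median log2 ratio was 0.14, against 0.00 over all genes and 0.05 over the 1959 genes that reached 30 FPKM in each line. Centred on the latter value, 35 genes were higher and 10 lower. A 1.5-fold difference was reached by 1 gene, Psma3 (2.22%, background 0.828%), which was also past 2-fold (background 0.185%), and 0 genes were at least 1.5-fold lower (background 0.907%) or 2-fold lower (background 0.564%). The other 6 were lower (13.3%, background 49.9%).

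All 14 constitutive core subunits were higher in the 4N- TTF line, with a median of 0.17, also relative to genes of high level. The catalytic subunits stood at 0.29 (Psmb5), 0.22 (Psmb6) and 0.15 (Psmb7). All 6 ATPases were higher, with a median of 0.14, and so were 15 of the 17 base and lid subunits, or 14 relative to genes of high level. Apart from Psma3 the largest ratio was that of Psmd9, 0.34, a 1.32-fold difference between 6.92 and 5.24 FPKM.

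The 6 lower genes were near 0 or low in level. Psma8 stood at 9.43 and 10.6 FPKM (-0.16) and the activator Psme1 at 28.8 and 30.9 FPKM (-0.10). Psme4, Psmg2, Psmd2 and Psmd14 lay between -0.03 and 0.00. Chromosome 11 was not apart in this pair: its 8 members had a median of 0.11 and its 620 genes one of 0.02. Over 6511 genes that reached 5 FPKM in each TTF line, the ratio had Spearman coefficients of -0.38 with transcript length and 0.30 with GC content. Over the 45 members these were -0.32 and 0.42. In the ESC and PF tables the length coefficients over all such genes were -0.09 and -0.01. The part of length or GC in the TTF ratios was not tested.

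Partners leaned the same way without a gene past 1.5-fold. Of 10 proteasome partners 8 were higher (median 0.09), and of 12 reported ubiquitin and shuttle genes 8 (median 0.04). Of 9 genes of proteasome transcription 6 were higher (median 0.02). Relative to genes of high level the numbers were 7, 5 and 3. The pluripotency markers of the 2 TTF lines summed to 1816 and 1850 FPKM and the fibroblast markers to 4.62 and 4.80 FPKM. The trophoblast markers summed to 56.8 and 41.7 FPKM, and their part in the ratios was not tested.

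In the authors' deposited table for the TTF pair, 43 of 14289 tested genes (0.301%) were called, among them 1 proteasome gene. It was Psma3, with p = 2.09e-06 and q = 0.00157 in the authors' deposited table. Here too each condition is 1 library, so these values do not measure the spread between lines.

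Set side by side, 37 of the 45 measured genes had a negative 4N- against 4N+ ratio in the PF pair and a positive one in the TTF pair. Lower in both were 6, and higher in both were 2, Psma3 and Psmb1. Of all measured genes, 68.1% were lower in the 4N- PF line and 50.1% higher in the 4N- TTF line. The share of all genes with each combination was not counted. The 4 lines were fitted together with limma on log2(FPKM + 1), with the origin of the cells as a block, over 11985 genes. By limma 14 genes (0.117%) passed a Benjamini-Hochberg adjusted p of 0.05, and 1 of them was a proteasome gene. With the block 1 residual degree of freedom remains. Limma draws each gene's spread between the 2 pairs of lines toward that of the other genes fitted. Its p-values thus do not measure the spread of the gene alone. The median log2 difference of the 45 genes was -0.11, with 42 lower in the 4N- lines. A fit without the 4N- PF line gave 0.05, with 16 lower and 29 higher. That fit also left out the block and so compared lines across tables. Within the pairs the medians were -0.33 (PF) and 0.14 (TTF), so the negative direction over both pairs came from the PF pair.

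The gene was Psma3, higher in the 4N- line of both pairs. If its transcript is taken as 1000 bases, the PF lines held 285 and 141 fragments, with exact Poisson 95% intervals of 7.16 to 9.06 FPKM (4N-) and 3.36 to 4.71 FPKM (4N+). The TTF lines held 523 and 217 fragments, with intervals of 9.84 to 11.7 FPKM and 4.02 to 5.26 FPKM. Within each pair the intervals, which cover counting error only, did not overlap.

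Over both pairs the Psma3 log2 difference was 0.96 with an SE of 0.15, and its limma adjusted p was 0.0468. The call was lost without the block (limma adjusted p = 1), with no filter on low values (0.940), and with values centred on genes that reached 5 FPKM (0.0659). Fits without 1 of the 4 libraries left out the block too, so they do not show what 1 library does to the call. The log2 difference in them was 0.78 to 1.15. With a pseudocount of 0.1 the limma adjusted p was 0.0207, and it was 0.000481 with a minimum of 5 FPKM. Psma3 is also the member whose reads are least certain, since 85.6% of its coding words also occur in Gm13835. In the ESC Psma3 went the same way as the rest of its ring, lower in the knockout.

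The next smallest p was that of Psma8, with a log2 difference of -0.32 and a limma adjusted p of 0.999. Its levels were lower in the 4N- line of both pairs, at 6.70 against 9.83 FPKM in the PF lines and 9.43 against 10.6 FPKM in the TTF lines. Of the 45 proteasome genes, only Psma3 had an unadjusted limma p below 0.05, against 446 of all 11985 genes.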

How the data were processed

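Messenger RNA was sequenced in 6 libraries, 1 per cell line, and the authors deposited 3 tables that each compare 2 libraries. Reads passed through CASAVA and TopHat2 on mm9, per the submitters' processing notes. Versions, strand use, annotation and the quantifier were not given in the sources used here. Expression values deposited by the authors were taken as FPKM, because they are never negative, not whole and sum to 263928 to 356260 per library. The p-values and q-values are the authors' own, per the file headers. They come from 1 library per condition and do not measure the spread between lines. The log2 fold changes deposited by the authors were not used, since infinite values had been replaced by a large number.

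Ratios of log2(FPKM + 1) were formed within a table, over genes that reached 1 FPKM in either library. A table holds 1 library per condition and allows no test, and folds of 1.5 and 2 were counted. On the FPKM + 1 scale, the uncentred counts over all measured members of a table stand beside the same share over all measured genes. Other counts, such as those by class, gene list, chromosome, centring or unadjusted p, mostly lack that share. A limma 3.58.1 fit (R 4.3.3; trend, Benjamini-Hochberg over all genes, adjusted p below 0.05) took the 4 iPSC libraries, with the parental cell type as block. Deviations of the 2 lines of 1 parental cell type from their label's mean correlated at 0.44 over 11985 genes. The script was tested on simulated data.

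Effective depth was the divisor that made receptor gene values whole fragments: in each library 98.2% to 100% of 33 to 122 values lay within 0.05 of one. Intervals are exact Poisson intervals at the 95% level. GC content and coding words came from the longest coding GENCODE transcript, and GC was known for 90.4% to 90.5% of genes. Coordinates of genes are mm9, and promoters are RefSeq GRCm38.p6, never joined by position. The partner Paaf1 was not analysed here, and 1 gene of the ubiquitin list is not reported here and not in its counts.

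Full values are given for members at least 1.5-fold different in a table, the highest and lowest of each class, and the catalytic, restricted, activating, inhibiting and chaperone genes, and for non-members at least 1.5-fold different or known as regulators. The members and lists were chosen with earlier results of these data known. Centring on genes at 30 FPKM, on the chromosome and on GC, and leaving out chromosome 11 or Psma3, were chosen after seeing the data. Python 3.11.15 was used.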

Additional observations from a re-analysis of the deposited data

Results flagged for a closer look

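The 4N- against 4N+ ratio went in opposite directions in the 2 iPSC pairs, in every case with 1 line per label, and the difference between the pairs was not tested. The median log2 ratio of the 45 measured proteasome genes was -0.33 in the PF pair and 0.14 in the TTF pair. Of single genes, 5 were at least 0.25 away from 0 on the log2 scale in both pairs with opposite sign. The share of all genes that did so was not counted. Psmb10 stood at -0.78 in the PF pair and 0.29 in the TTF pair. Psmb3 stood at -0.56 and 0.29, and Psmb5 at -0.32 and 0.29. Psmd9 stood at -0.72 and 0.34, and Psmg3 at -0.37 and 0.26. The 5 include a core subunit that cuts, a structural one, an immunoproteasome subunit and 2 chaperones, and 3 of them (Psmb3, Psmb5 and Psmg3) have a near-identical copy elsewhere in the annotation.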

How the results depend on the processing

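Under other settings 78 values stayed, 35 moved, 7 lost their call and 1 reversed. The last was the median log2 difference of the members over the 4 iPSC lines, -0.11. It went from -0.29 to 0.05 when each library was left out, with the block left out as well, and was positive, 0.050, without the 4N- PF line. Centred on genes at 5 FPKM it was -0.032, with 26 of 45 lower. In the ESC the median of -0.45 became -0.25 centred on genes at 5 FPKM, -0.064 on genes at 30 FPKM, -0.21 on the chromosome and -0.30 on the GC class. The 17 genes at least 1.5-fold lower became 10, 2, 9 and 4, and the 0 at least 1.5-fold higher became 1 and 3 under the first 2 of these, so that on genes at 30 FPKM 2 were lower and 3 higher. In the PF pair the median of -0.33 became -0.16, -0.13, -0.13 and -0.16, and the 5 genes lower became 2, 0, 1 and 2, or 2 without chromosome 11. Without Psma3 the gene higher by 1.5-fold in each iPSC pair was gone (0). The TTF median kept within 0.1 under all settings tried.

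The limma call of 1 member became 0 with no replicate block (3 genes in all, against 14), with no filter (0 genes) and when centred. Fits that left out 1 of the 4 libraries also left out the block, so they cannot separate these 2 changes. In them the lone library of a label was assumed to vary like the other. The call stayed with a minimum of 5 FPKM (67 genes) and without small RNA genes (92 genes). Psma3 stood at 0.78 to 1.15 over the fits without a library and the settings that lost the call. Leaving a library out of a 2-library table gives no value. Counting error limits the members of low level most, and was worked out for Psma3 alone. No replicate exists for any line, the unit was read from the values, and 6 members have near-identical copies that may take their reads. Members that share less of their coding words with another gene may be affected too.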
